A study of Homo sapiens with 12 samples.

Results

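Hyaluronan is a long sugar polymer of the matrix around cells, and 9 genes that make it, break it down or bind it were followed in 12 RNA-seq libraries of MDA-MB-231, an established human cell line from a triple-negative breast cancer. The genes were HAS2 and HAS3 (synthases), HYAL1, HYAL2 and HYAL3 (hyaluronidases), CEMIP and CEMIP2 (breakdown outside the classical hyaluronidases), and CD44 and HMMR (receptors). They were taken by symbol from the 60664 genes of the count table, and each symbol occurred on 1 gene. The set was put together around CEMIP, which was known from these libraries to be higher in CCAR2 knockout cells. For that reason the values of the 9 genes in knockout against WT are given below as a description without a test, and nothing is read from them about the set.

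Hyaluronan synthases sit in the plasma membrane, join UDP-glucuronic acid and UDP-N-acetylglucosamine and push the growing chain out of the cell. Hyaluronidases and the CEMIP proteins cut the chain, and the fragments are taken up and degraded in lysosomes. Tumours are often rich in hyaluronan, and its receptor CD44 is a well-known surface marker of basal-like and mesenchymal-like breast cancer cells such as MDA-MB-231.

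The study compared untreated WT cells in normoxia with WT cells held in hypoxia (1% O2) for 24 hr, and with untreated CCAR2 KO cells (genotype CCAR2-/-), with 4 libraries in each of the 3 groups. CCAR2 encodes the nuclear regulator DBC1, and the question was which genes regulated by DBC1 also respond to hypoxia. According to the methods, knockout was made with a lentiviral CRISPR vector. The methods speak of biological replicates, in another number than the 4 libraries per group, and the labels do not tie the libraries to separate cultures. Whether the KO cells were 1 clone or a pool and whether the WT cells carried an empty vector are not given in the sources used here. The p-values measure only the spread between these libraries.

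The sum of estimated counts per library was between 153904088 and 213743693 in WT normoxia, between 76384973 and 195621872 in WT hypoxia and between 68599412 and 152328450 in CCAR2 KO. The targeted gene CCAR2 was at 146 ± 3.11 CPM (counts scaled to the TMM-adjusted library sum) in WT normoxia, 149 ± 4.95 in WT hypoxia and 57.8 ± 2.81 in CCAR2 KO (SD, n = 4), so the KO libraries still held CCAR2 reads. The methods state that loss of DBC1 protein was checked by Western blot, which was not analysed here. CA9 and NDRG1, known hypoxia targets, had log2 fold changes of 6.21 and 2.60 under hypoxia. Of the line's markers, VIM was between 4590 and 5194 CPM as group mean, ESR1, PGR and CDH1 were under 0.31 CPM, EPCAM was between 12.7 and 17.5 CPM, and ERBB2, thought of as low in this line, was between 91.0 and 100.5 CPM. Among markers of other cell types, CD3E (leukocytes) was at or near 0. PTPRC (leukocytes) was at 0.205 CPM in WT normoxia and 0.0634 in CCAR2 KO, without overlap (log2 fold change -1.59, edgeR adjusted p = 0.0523). PECAM1 (endothelium), COL1A1 and PDGFRB (fibroblasts) were called higher in CCAR2 KO with log2 fold changes of 1.11, 0.56 and 0.62. The groups of PDGFRB overlapped (edgeR adjusted p = 0.0466). The other endothelial marker, VWF, went from 0.326 to 0.169 CPM (-0.94, edgeR adjusted p = 0.0811). The part of these markers in the results below was not tested.

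Hypoxia acts on many genes through HIF, which binds the core ACGTG or GCGTG. For that reason the sequence before RefSeq transcript starts of the genes was searched for short motifs. Of the 9 genes, 8 had an entry in RefSeq's promoter table (build GRCh38.p14), all but HAS2. In the 250 bases before the RefSeq start, searched on both strands, 6 of the 8 genes held a core (CD44, CEMIP, HAS3, HYAL1, HYAL2 and HYAL3), and CEMIP2 and HMMR held none. Such a start can lie inside the gene. The windows of HAS3, HYAL1, CEMIP2, CD44 and HMMR were within the gene positions given below. The same search found a core in 43.2% of all 35116 promoters, with ACGTG in 18.5% and GCGTG in 32.2%. That share is per entry, while a gene of the set was counted if any of its entries held a core. The TATA box, spelled TATAAA, stood in the window of CEMIP alone among the 8, at 30 to 25 bases before the start, against 10.7% of all promoters. The AP-1 motif TGANTCA was in none of the 8 and in 6.57% of all promoters. These matches describe letters and not bound sites. Below are shown CEMIP, with the highest fold change of the set in CCAR2 KO, HYAL3, and HAS3, the only one with both forms of the core. The groups of HYAL3 did not overlap under hypoxia, and neither did those of CEMIP2, which held no core and is not shown. Capitals mark the motifs. In HAS3, ACGTG on one strand overlaps ACGTG on the other as CACGTG. CEMIP is read from 250 to 25 bases before its RefSeq start (chr15:80779120-80779345, + strand). The last bases of its TATAAA lie within the gene positions given below, which start at 80779343. HYAL3 is read from 250 to 64 bases before the start of 1 of its 2 entries (chr3:50299469-50299655, - strand), and the other entry held no core. HAS3 is read over the 250 bases (chr16:69107290-69107539, + strand), which lie inside the gene.
CEMIP: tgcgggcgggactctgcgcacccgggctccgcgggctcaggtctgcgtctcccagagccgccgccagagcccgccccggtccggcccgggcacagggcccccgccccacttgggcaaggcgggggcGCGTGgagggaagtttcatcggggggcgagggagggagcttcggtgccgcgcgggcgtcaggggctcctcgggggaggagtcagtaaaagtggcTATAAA
HYAL3: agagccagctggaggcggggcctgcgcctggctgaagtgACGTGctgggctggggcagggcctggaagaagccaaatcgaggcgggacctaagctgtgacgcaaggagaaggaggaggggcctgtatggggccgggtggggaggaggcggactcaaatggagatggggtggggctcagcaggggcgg
HAS3: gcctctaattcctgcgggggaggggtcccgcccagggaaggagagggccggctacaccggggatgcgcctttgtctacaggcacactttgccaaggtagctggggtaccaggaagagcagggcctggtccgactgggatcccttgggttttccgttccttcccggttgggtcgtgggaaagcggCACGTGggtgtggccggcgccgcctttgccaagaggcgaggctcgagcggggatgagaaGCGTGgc

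Per length of transcript, CD44 was by far the most abundant of the 9 genes in WT normoxia and CEMIP and HYAL1 the least. On the TPM scale (counts per length of the gene's exons, scaled to a common sum per library), CD44 had a mean level of 211, HYAL2 29.6, HMMR 10.6, CEMIP2 7.27, HYAL3 6.04, HAS2 1.42 and HAS3 0.817. HYAL1 was at 0.467 and CEMIP at 0.441, and their ranges over the 4 libraries overlapped, while every other pair of neighbours was apart. The order of all 9 was the same when the longest transcript was used as the length.

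**Figure D1:**
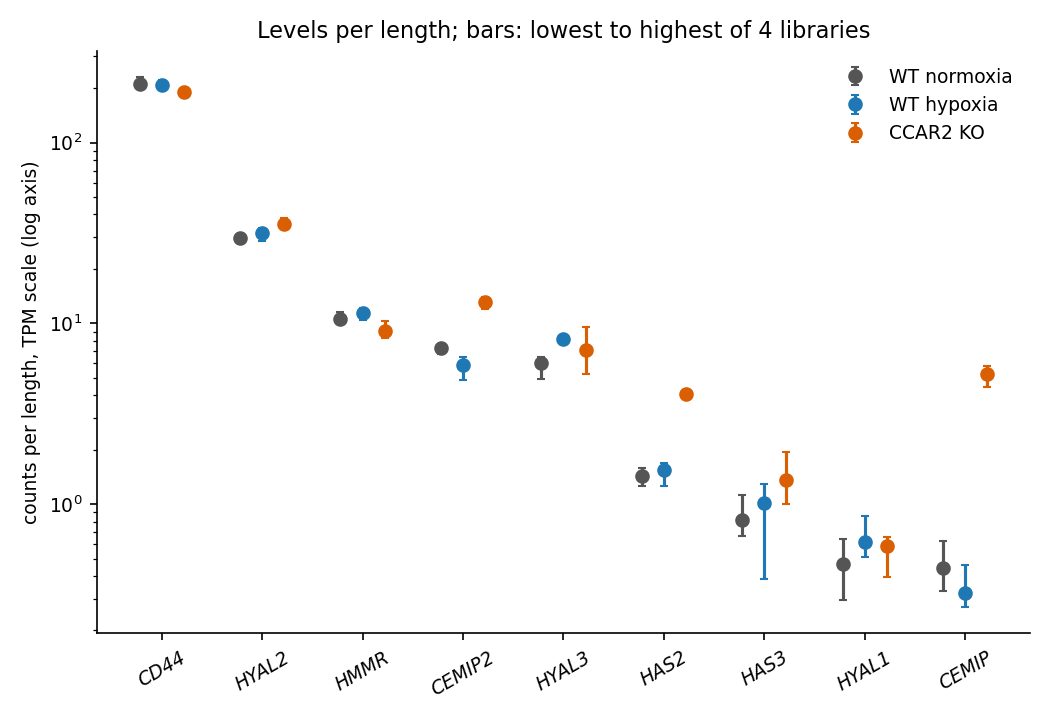
Level of each gene per exon length on the TPM scale (log axis), as the mean of 4 libraries of WT normoxia, WT hypoxia and CCAR2 KO, with bars from the lowest to the highest library. CD44 is the highest gene in all 3 groups, and CEMIP goes from 0.441 in WT normoxia to 5.26 in CCAR2 KO.

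In WT hypoxia the top of this order was the same, with CD44 at 209, HYAL2 at 31.5 and HMMR at 11.4, while HYAL3 (8.20) stood above CEMIP2 (5.87), an order that turned when the longest transcript was used. HAS2 (1.55) overlapped HAS3 (1.01), and HAS3 overlapped HYAL1 (0.618). CEMIP was last, at 0.324. In CCAR2 KO, CEMIP2 (13.1) stood next after CD44 (191) and HYAL2 (35.4). HMMR (9.02), HYAL3 (7.07) and CEMIP (5.26) followed with overlapping neighbours, then HAS2 (4.08), HAS3 (1.36) and HYAL1 (0.585). On this scale CEMIP made up 1.00 ± 0.267% of the summed level of the 5 breakdown genes (CEMIP, CEMIP2 and the 3 hyaluronidases) in WT normoxia, 0.692 ± 0.158% in WT hypoxia and 8.54 ± 0.635% in CCAR2 KO (SD, n = 4), and HYAL2 remained the largest of them by level.

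Under hypoxia, none of the 9 hyaluronan genes passed the call used throughout, an adjusted p-value under 0.05 in edgeR's quasi-likelihood test over all genes together with a log2 fold change at or beyond 0.5 in either direction. Of the 21776 genes tested in this comparison, 7.26% were called, 5.83% higher and 1.43% lower. DESeq2 and limma-voom also called 0 of the 9, and at an unadjusted p-value under 0.05 edgeR gave HYAL3 higher and CEMIP2 lower. These 2 genes also passed the adjusted p-value alone, which 23.5% of all genes did, and were the only 2 of the 9 whose libraries did not overlap between groups, against 26.4% of all genes. The median log2 fold change was 0.08 for the 9 genes and 0.01 for all genes tested. In bulk RNA, fewer cells expressing a gene and less RNA per cell cannot be told apart.

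**Figure D2:**
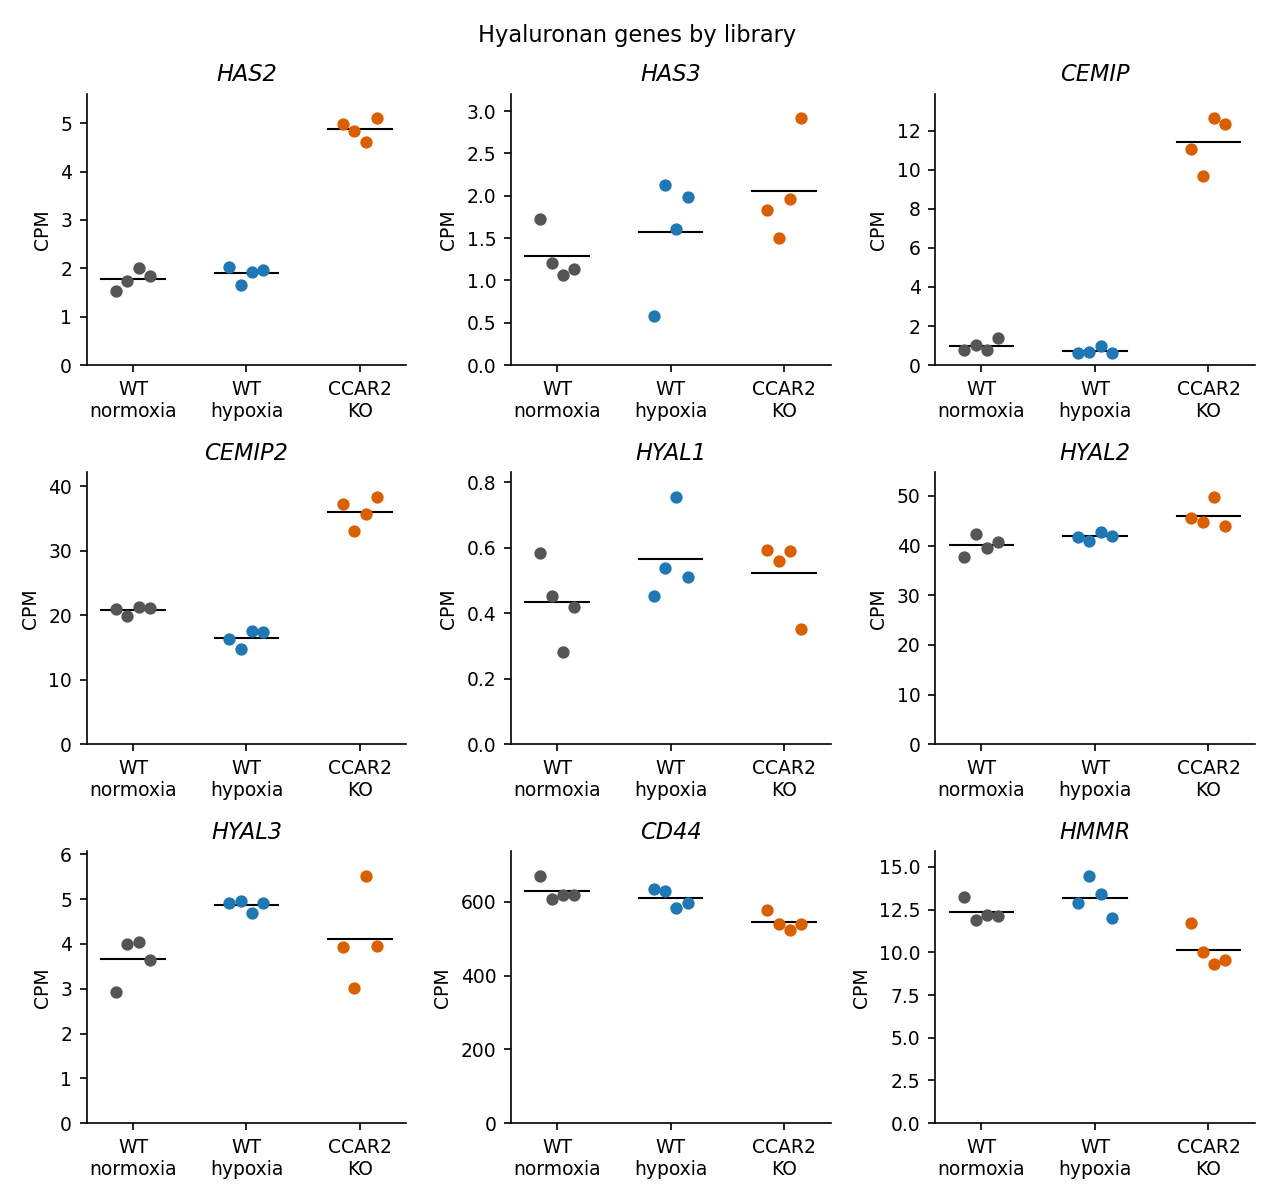
CPM of each gene in every library (points) with the group mean (line), for WT normoxia, WT hypoxia and CCAR2 KO, 4 libraries each. The CEMIP libraries of CCAR2 KO lie between 9.68 and 12.6 CPM, above 1.39 CPM, the highest WT library.

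HAS2, the synthase that makes long chains in most tissues, was level between the oxygen conditions and higher in the KO libraries. Its CPM were 1.53, 1.73, 2.01 and 1.84 in WT normoxia, 2.02, 1.66, 1.92 and 1.97 in WT hypoxia and 4.98, 4.83, 4.60 and 5.10 in CCAR2 KO. Normoxia and hypoxia overlapped, and all 4 KO libraries lay above all 8 WT libraries. The log2 fold change of HAS2 was 0.08 (SE 0.14, edgeR adjusted p = 0.720; exact permutation p = 0.371, two-sided) under hypoxia. In KO against WT normoxia it was 1.46 (SE 0.11). HAS2 (ENSG00000170961) lies on chromosome 8 of GRCh38, 121612116 to 121641390, minus strand, and 201 of its exonic bases, 4.8% of them, are shared with the antisense gene HAS2-AS1.

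HAS2-AS1, a non-coding transcript from the opposite strand, was much lower than HAS2 in CPM and its counts were few, between 21 and 86 per library. Its mean was 0.225 CPM in WT normoxia, 0.382 in WT hypoxia and 0.545 in CCAR2 KO. The log2 fold change was 0.74 under hypoxia (edgeR adjusted p = 0.156) and 1.26 in CCAR2 KO (SE 0.33, edgeR adjusted p = 0.0112). Strandedness of the libraries is not given in the sources used here, so reads in the shared exons could belong to either gene.

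HAS3, the synthase of shorter chains, was the most scattered of the set under hypoxia. In WT normoxia it had 1.72, 1.20, 1.07 and 1.14 CPM, and in WT hypoxia 0.582, 2.13, 1.61 and 1.99. Hypoxia replicate 1 lay below every normoxia library, replicate 3 within their range, and replicates 2 and 4 above it. Its log2 fold change under hypoxia was 0.30 (SE 0.33, edgeR adjusted p = 0.574; exact permutation p = 0.829). In CCAR2 KO the libraries were at 1.84, 1.51, 1.96 and 2.92 CPM and overlapped the normoxia libraries, with a log2 fold change of 0.68 (SE 0.22), which was 0.46 without KO replicate 4. HAS3 (ENSG00000103044) lies on chromosome 16, 69105564 to 69118719, plus strand. It shares 365 exonic bases (6.9%) with CHTF8 on the other strand, and CHTF8 itself rose under hypoxia, from 56.4 to 83.6 CPM (log2 fold change 0.56, edgeR adjusted p = 0.00903). The part of CHTF8 reads in the HAS3 counts was not tested.

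Per length, HAS2 made up 63.7 ± 7.65% of the 2 synthases together in WT normoxia, 61.7 ± 13.8% in WT hypoxia and 75.3 ± 4.85% in CCAR2 KO (SD, n = 4). The remaining synthase gene, HAS1, had at most 5 counts in a library and was not tested.

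CEMIP encodes a secreted and cell-associated protein that binds hyaluronan and is needed for its breakdown in skin and synovial fibroblasts. Its CPM were 0.789, 1.05, 0.766 and 1.39 in WT normoxia, from 142 to 212 counts, and 0.621, 0.673, 0.979 and 0.603 in WT hypoxia, from 48 to 161 counts. Of the 4 hypoxia libraries, replicate 3 lay within the normoxia range and the other 3 below it. The log2 fold change under hypoxia was -0.48 (SE 0.25, edgeR adjusted p = 0.201; exact permutation p = 0.143), which did not pass the test. In CCAR2 KO its CPM were 11.1, 9.68, 12.6 and 12.4, from 675 to 1946 counts, so that each KO library was several times above each WT library. The means were 0.999 ± 0.290 CPM in WT normoxia and 11.4 ± 1.35 CPM in CCAR2 KO (SD, n = 4), a log2 fold change of 3.52 (SE 0.18). CEMIP (ENSG00000103888) lies on chromosome 15, 80779343 to 80951776, plus strand, and shares 224 exonic bases (2.94%) with MESD on the other strand. It also shares 71 (0.932%) with the antisense gene AC027808.1, which had at most 5 counts in a library. MESD was at 45.5 CPM in WT normoxia and 52.0 in CCAR2 KO (log2 fold change 0.19, edgeR adjusted p = 0.00669). The part of MESD reads in the CEMIP counts was not tested.

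CEMIP2, the membrane-bound relative of CEMIP also known as a cell-surface hyaluronidase, was the gene with the narrowest spread in WT normoxia. Its CPM were 21.0, 19.8, 21.2 and 21.2 in WT normoxia and 16.3, 14.8, 17.5 and 17.3 in WT hypoxia, without overlap. The log2 fold change of -0.34 (SE 0.07, edgeR adjusted p = 0.00385; exact permutation p = 0.0286, the smallest that 4 against 4 libraries allow) was under the limit on fold, so the gene was not called. In CCAR2 KO its CPM were 37.2, 33.1, 35.7 and 38.3, all above the WT libraries, with a log2 fold change of 0.79 (SE 0.06). CEMIP2 (ENSG00000135048) lies on chromosome 9, 71683366 to 71816690, minus strand. Both genes of the pair thus had values below 0 under hypoxia, of which that of CEMIP did not pass the test, and above 0 in CCAR2 KO. Per length, CEMIP was 5.70 ± 1.56% of the pair in WT normoxia, 5.21 ± 1.06% in WT hypoxia and 28.6 ± 1.79% in CCAR2 KO (SD, n = 4), so CEMIP2 was the more abundant transcript of the 2 in each group.

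**Figure D3:**
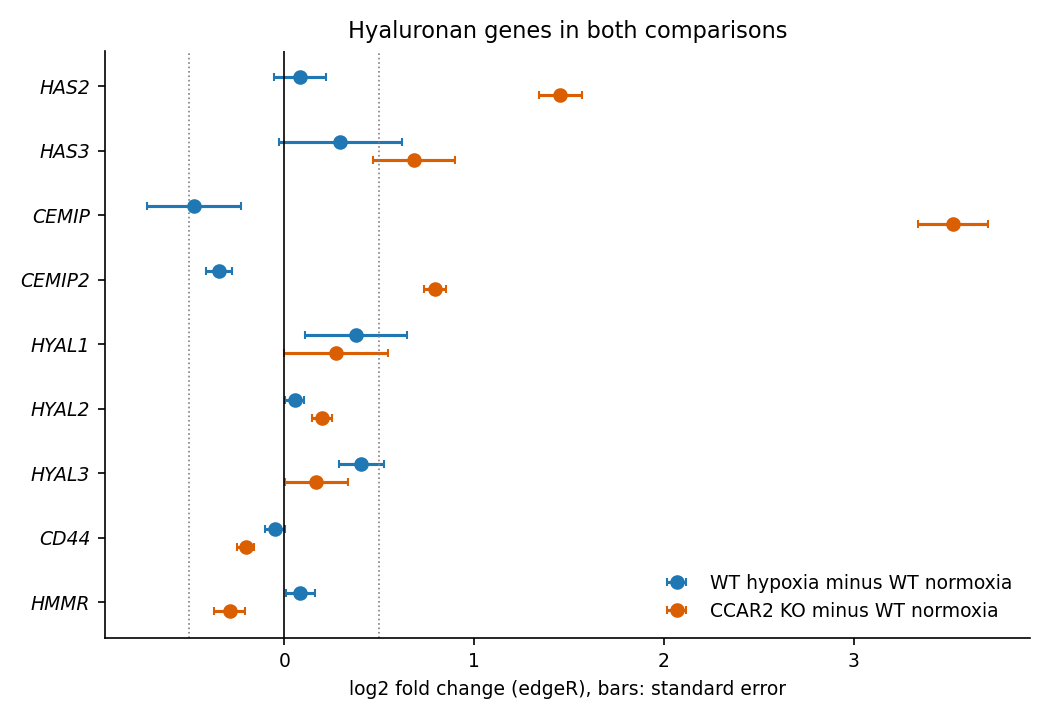
Log2 fold change of each gene against WT normoxia, with its standard error, for WT hypoxia (blue) and CCAR2 KO (orange), and dotted lines at -0.5 and 0.5, the limit on fold. The WT normoxia libraries are shared by the comparisons, no gene passes the call under hypoxia, and CEMIP at 3.52 and HAS2 at 1.46 are the highest values in CCAR2 KO.

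The hyaluronidases HYAL1, HYAL2 and HYAL3 are neighbours on chromosome 3, on the minus strand between 50292831 and 50322906. HYAL2, a membrane-anchored enzyme that cuts long chains at the cell surface, made up most of their summed level per length, 82.0 ± 1.24% in WT normoxia, 78.1 ± 0.536% in WT hypoxia and 82.4 ± 2.64% in CCAR2 KO (SD, n = 4). Its CPM were 37.7, 42.2, 39.5 and 40.8 in WT normoxia and 41.8, 40.8, 42.8 and 42.0 in WT hypoxia, which overlapped (log2 fold change 0.06, SE 0.05, edgeR adjusted p = 0.499; exact permutation p = 0.171). The KO libraries, at 45.5, 44.7, 49.8 and 43.9 CPM, lay above both, with a log2 fold change of 0.20 (SE 0.05). HYAL2 (ENSG00000068001, 50317790 to 50322906) shares 11.2% of its exonic bases with TUSC2, whose log2 fold change did not pass the test in either comparison.

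HYAL3, a hyaluronidase relative whose own activity is less well defined, was the only gene of the set with an adjusted p-value under 0.05 and a higher value under hypoxia. Its CPM were 2.93, 3.998, 4.04 and 3.65 in WT normoxia and 4.92, 4.97, 4.68 and 4.91 in WT hypoxia. The groups did not overlap, and the hypoxia libraries were closer to each other than the normoxia ones. The log2 fold change was 0.41 (SE 0.12, edgeR adjusted p = 0.0284; exact permutation p = 0.0286), under the limit on fold, and the adjusted p-value was above 0.05 without any 1 of 5 libraries, between 0.0503 and 0.0646 (WT normoxia replicate 1 or 4, or WT hypoxia replicate 1, 3 or 4). In CCAR2 KO the CPM were 3.92, 3.03, 5.51 and 3.94 and overlapped WT normoxia, with a log2 fold change of 0.17 (SE 0.17) that was -0.01 without KO replicate 3. HYAL3 (ENSG00000186792, 50292831 to 50299468) shares 12.2% of its exonic bases with NAA80 and 2.12% with IFRD2. NAA80 was at 13.7 CPM in normoxia and 13.8 in hypoxia (edgeR adjusted p = 0.990). IFRD2 was at 289 CPM in normoxia and 279 in hypoxia (edgeR adjusted p = 0.481). The part of their reads in the HYAL3 counts was not tested.

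HYAL1, the lysosomal hyaluronidase, had few counts, between 35 and 124 per library. It was at 0.584, 0.452, 0.283 and 0.419 CPM in WT normoxia, 0.453, 0.539, 0.754 and 0.511 in WT hypoxia and 0.593, 0.559, 0.591 and 0.350 in CCAR2 KO. All 3 groups overlapped. The log2 fold change of HYAL1 (ENSG00000114378, chromosome 3, 50299889 to 50312381) was 0.38 under hypoxia (SE 0.27, edgeR adjusted p = 0.361; exact permutation p = 0.229) and 0.27 in CCAR2 KO (SE 0.27), and with this error a change of moderate size was not detectable.

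CD44, the main surface receptor of hyaluronan, differed little between the groups. Its CPM were 669.9, 608, 619 and 619.5 in WT normoxia and 634, 628, 585 and 596 in WT hypoxia, which overlapped (log2 fold change -0.05, SE 0.05, edgeR adjusted p = 0.561; exact permutation p = 0.371). In CCAR2 KO they were 579, 541, 524 and 541, below every WT library, with a log2 fold change of -0.20 (SE 0.05). CD44 (ENSG00000026508) lies on chromosome 11, 35138870 to 35232402, plus strand, with 39 annotated transcripts, and a count per gene does not tell its standard form from its variant forms. It shares 84 exonic bases (0.84%) with the antisense gene CD44-AS1, which had between 52 and 144 counts per library.

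HMMR, also called RHAMM, binds hyaluronan and, inside the cell, the mitotic spindle. Its CPM were 13.3, 11.9, 12.2 and 12.1 in WT normoxia and 12.9, 14.5, 13.4 and 12.04 in WT hypoxia, with overlap (log2 fold change 0.09, SE 0.08, edgeR adjusted p = 0.486; exact permutation p = 0.257). In CCAR2 KO they were 11.7, 10.01, 9.30 and 9.57, below every WT library, with a log2 fold change of -0.29 (SE 0.08). HMMR (ENSG00000072571) lies on chromosome 5, 163460203 to 163491945, plus strand. It shares 113 exonic bases (2.87%) with the antisense gene HMMR-AS1, which had at most 8 counts in a library and was not tested.

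Since HMMR belongs to the transcripts of dividing cells, its values are set beside 15 mitosis genes. Under hypoxia none of the 15 was called, and 10 passed the adjusted p-value alone, all lower, among them TTK, a spindle checkpoint kinase (log2 fold change -0.47, edgeR adjusted p = 0.000477), where 23.5% of all genes passed it in either direction. All 15 had values below 0 (13 of them with upper-quartile normalization), with a median of -0.31 against 0.01 over all genes, while HMMR was at 0.09. MKI67 was the nearest to 0 at -0.03 (edgeR adjusted p = 0.882). In CCAR2 KO none was called, 9 passed the adjusted p-value alone, all lower, where 30.4% of all genes did in either direction. Of the 15, 13 had values below 0, and the median was -0.14 against 0.01 over all genes, with HMMR at -0.29.

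**Figure D4:**
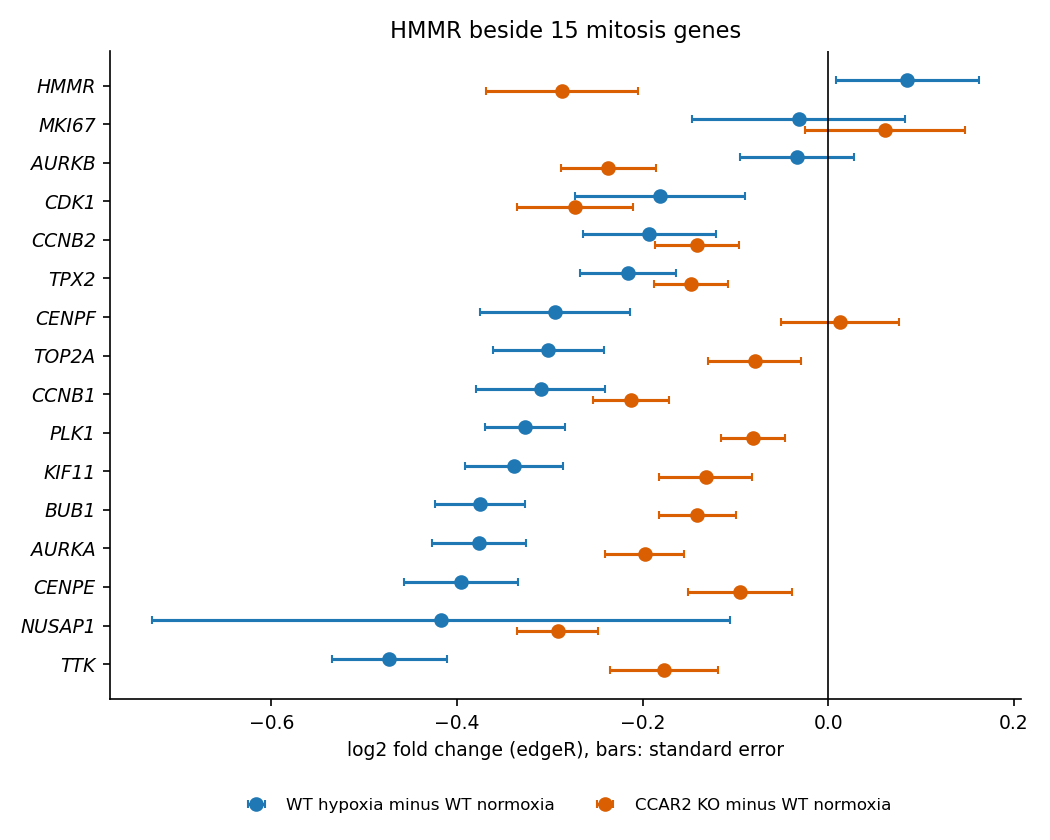
Log2 fold change with its standard error for HMMR and 15 mitosis genes, in WT hypoxia (blue) and CCAR2 KO (orange) against WT normoxia. Under hypoxia HMMR is at 0.09 and the 15 other genes are below 0 in this fit (13 with upper-quartile normalization), with a median of -0.31.

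In knockout against WT normoxia, the comparison the set was chosen on, the values of the 9 genes are a description without a test. The libraries of CEMIP, CEMIP2, HAS2 and HYAL2 did not overlap upward and those of CD44 and HMMR downward, and 30.8% of all 21410 genes tested did not overlap, from which nothing is read since this comparison chose the set. The median log2 fold change of the 9 was 0.27, and 0.01 over all genes. By fold alone, in either direction, the value nearest to the limit of 0.5 was 0.68 for HAS3 beyond it and -0.29 for HMMR within it.

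Over the 12 libraries, the genes whose log2 CPM were most like those of CEMIP, among 13679 genes compared, were FOXQ1 and CSF1 (Pearson correlation 0.993 each), SPRY1 (0.993), CTSD (0.992) and IRF2BPL (0.992). Each was higher in all KO libraries than in any WT library, as CEMIP was, and the means of WT normoxia and CCAR2 KO were 22.4 and 97.7 CPM for FOXQ1, a transcription factor, and 95.5 and 226 CPM for CSF1, a macrophage growth factor. By rank correlation none of these 5 was among the first 5. Of the hyaluronan genes, HAS2 and CEMIP2 were at 0.96 with CEMIP, HYAL2 at 0.79, HAS3 at 0.47, HYAL1 at 0.10, HYAL3 at -0.15, and CD44 and HMMR at -0.85. The 12 points come from 3 groups, and CEMIP was chosen for the difference between CCAR2 KO and WT, so the correlations are given without a test.

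A further 51 genes of the pathway were looked at by their role, listed with earlier results of these libraries known. Under hypoxia 38 of them could be tested, of which 1 was called higher and 2 lower, 3 of 38 where 7.26% of all genes were called. PGM1, which turns glucose-6-phosphate into glucose-1-phosphate on the way to UDP-glucuronic acid, rose from 78.6 ± 3.22 to 133 ± 9.47 CPM (SD, n = 4; log2 fold change 0.75, SE 0.06, edgeR adjusted p = 2.4e-05). GFPT1, the entry enzyme of the hexosamine branch, fell from 123 ± 6.59 to 86.9 ± 2.44 CPM (log2 fold change -0.51, SE 0.05, edgeR adjusted p = 8.4e-05). ESRP1, a splicing factor of epithelial cells that acts on CD44 transcripts, fell from 1.58 to 1.08 CPM (log2 fold change -0.56, SE 0.17, edgeR adjusted p = 0.0371). GFPT1 fell under the limit on fold, at -0.48 and -0.49, without WT normoxia replicate 1 or WT hypoxia replicate 3. ESRP1 lost its call without any 1 of the 8 libraries except WT hypoxia replicate 1, with adjusted p-values between 0.0522 and 0.106. The median of the 38 was -0.05, against 0.01 for all genes.

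By role, hypoxia gave 1 higher and 1 lower of 8 tested genes for building blocks, none of 4 for breakdown, none of 5 other receptors, none of 11 hyaluronan-binding matrix proteins, and 1 lower of 10 partners, sheddases and splicing factors of CD44. At the adjusted p-value alone, 3 were higher and 8 lower in all, 11 of 38, beside 23.5% of all genes in either direction. SPAM1, LYVE1 and HAPLN4 were at 0 in all libraries.

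In CCAR2 KO 37 of the 51 could be tested, and 9 were called higher and 3 lower, against 6.73% and 2.94% of the 21410 genes tested (9.67% together). HYAL4, among the 9, passed the filter only through its KO libraries, where it was high. Its call was open in that direction alone, and nothing is read from it. The median of the 37 was 0.19 and that of all genes 0.01. Of the building block genes, GFPT2, the second form of the hexosamine entry enzyme, rose from 19.6 to 40.4 CPM (log2 fold change 1.04, edgeR adjusted p = 1.7e-07). UAP1, which makes UDP-N-acetylglucosamine, the substrate of HAS2 and HAS3, fell from 252 to 171 CPM (-0.56, edgeR adjusted p = 1.9e-06). The other 6 tested building block genes were not called. Among them, GFPT1 (-0.34, edgeR adjusted p = 0.000252), GNPNAT1 (-0.47, 6.8e-05) and UGDH (0.45, 5.9e-05) passed the adjusted p-value but were under the limit on fold. At the adjusted p-value alone, 4 of the 8 tested were higher and 3 lower, beside 30.4% of all genes in either direction.

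Of 5 tested breakdown genes in CCAR2 KO, IDUA was called higher, and so was HYAL4, whose call was open in that direction alone. IDUA is a lysosomal enzyme known for degrading dermatan and heparan sulfate and not hyaluronan, and it rose from 4.79 to 10.4 CPM (log2 fold change 1.12, edgeR adjusted p = 2.5e-05). HYAL4, known mainly to cut chondroitin sulfate, had between 0 and 10 counts in the WT normoxia libraries and between 11 and 62 in the KO libraries. Since HYAL4 was tested only through its KO libraries, its log2 fold change of 3.19 (SE 0.90) is given without a p-value. Without KO replicate 4, which held the 62, HYAL4 was not called.

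Of 5 tested receptors, STAB1, TLR2 and TLR4 were called higher in CCAR2 KO. TLR4, an innate immune receptor that can respond to hyaluronan fragments, rose from 10.7 to 21.0 CPM (log2 fold change 0.98, edgeR adjusted p = 2.0e-07). TLR2, of the same family, rose from 4.91 to 7.02 CPM (0.52, edgeR adjusted p = 0.00172) and came under the limit on fold, between 0.46 and 0.48, without WT normoxia replicate 3 or KO replicate 1 or 4. STAB1, a scavenger receptor, had at most 83 counts, its groups overlapped (1.56, edgeR adjusted p = 0.0306), and it lost its call without WT normoxia replicate 1, 2 or 4 or KO replicate 2 or 3, with adjusted p-values between 0.0668 and 0.0943.

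Of 9 tested hyaluronan-binding matrix proteins, PTX3 was called higher and VCAN lower in CCAR2 KO. PTX3, a pentraxin that helps to cross-link hyaluronan in the matrix, rose from 17.0 to 32.8 CPM (log2 fold change 0.95, edgeR adjusted p = 9.3e-08). VCAN, the large proteoglycan versican, fell from 1.07 to 0.519 CPM (-1.03, edgeR adjusted p = 0.00220).

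Of the 10 tested partners, sheddases and splicing factors of CD44, MMP14 and ESRP1 were called higher and RDX lower in CCAR2 KO. MMP14, a membrane protease that can shed CD44, rose from 347 to 569 CPM (log2 fold change 0.71, edgeR adjusted p = 5.6e-07). ESRP1 rose from 1.58 to 2.59 CPM (0.71, edgeR adjusted p = 0.00113). RDX, which encodes radixin, a linker of CD44 to actin, fell from 149 to 82.6 CPM (-0.85, edgeR adjusted p = 5.4e-08). Its relatives EZR and MSN were not called. EZR was at 0.0043 (edgeR adjusted p = 0.945). MSN was slightly higher without overlap, at 0.12 (edgeR adjusted p = 0.0460), under the limit on fold.

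**Figure D5:**
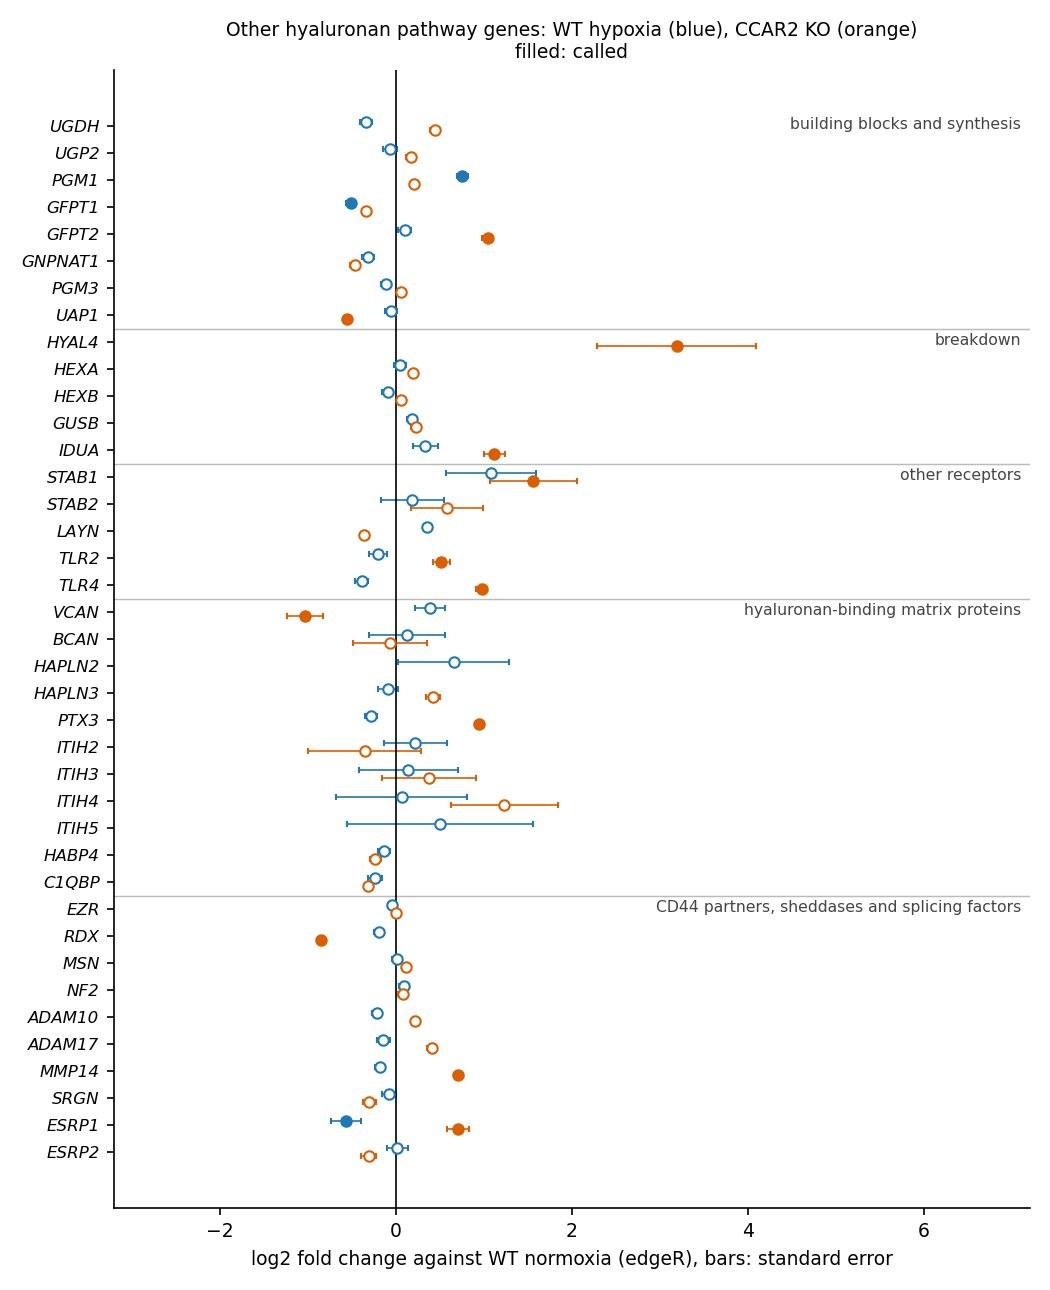
Log2 fold change with its standard error for the tested genes of the 51 pathway genes, grouped by role, in WT hypoxia (blue, 38 genes) and CCAR2 KO (orange, 37 genes) against WT normoxia, with called genes filled. Under hypoxia PGM1, GFPT1 and ESRP1 are filled, and in CCAR2 KO 9 genes to the right and 3 to the left of 0. HYAL4, among the 9, passed the filter only through its CCAR2 KO libraries.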

How the data were processed

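RNA-seq values of 12 libraries of MDA-MB-231 were used. According to the methods the authors aligned reads with Hisat2 and quantified them with StringTie, while the submitters' notes name HISAT2, SAMtools and featureCounts, and extraction kit, library kit and number of replicates also differ between the sources. What the authors deposited are estimated counts, in whole numbers and without scaling to library size. Build and annotation are not given in the sources used here. Positions come from GENCODE 29 (GRCh38), which held 58396 of the 60664 identifiers, and promoters from RefSeq.

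Groups were taken from the sample titles. Each comparison used its own 2 groups in edgeR 4.0.16 (R 4.3.3) with TMM normalization, filterByExpr, the quasi-likelihood test and Benjamini-Hochberg adjustment over all genes tested, and all 9 genes passed the filter in both. Both comparisons share the WT normoxia libraries. For single genes, log2 CPM were compared by exact permutation (two-sided). The genes, the lists and the rule for naming (the 9 genes, listed genes called in either comparison, overlapping genes and the 5 genes most like CEMIP by Pearson correlation among genes with a mean of at least 100 counts) were chosen with earlier results of these data known. The test was checked on simulated data. Alternatives were DESeq2 1.42.0, limma-voom (limma 3.58.1), other normalizations, filters and limits, 1 fit over 12 libraries, a replicate block and each library left out. Replicate numbers were not used as pairs in the main fits. Deviations of libraries with the same number correlated at -0.00707 to 0.0651 (hypoxia) and -0.0249 to 0.0216 (KO). Libraries with different numbers were not compared, so these values cannot settle whether libraries with the same number were handled together. The chi-square of replicate pairs, per degree of freedom, was 14.0 to 97.6, where a library deposited again unchanged would give 0.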

Additional observations from a re-analysis of the deposited data

Results flagged for a closer look

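In 3 of 69 groups of 4 libraries, 1 library lay far from the other 3 by Dixon's test, where chance gives about 1 in 20 groups, or 3.45. HYAL1 in CCAR2 KO replicate 4 was at 0.350 CPM against 0.559 to 0.593 in the others, a gap of 0.861 of the range. TLR2 in WT hypoxia replicate 3 was at 4.92 CPM against 4.05 to 4.13, a gap of 0.909 of the range. MMP14 in WT hypoxia replicate 2 was at 283 CPM against 314 to 318, a gap of 0.894 of the range.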

How the results depend on the processing

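No hyaluronan gene was called under hypoxia under any alternative but the adjusted p-value alone, which gave 1 higher and 1 lower, and leaving out 1 library gave 0 to 0. CEMIP2 passed the adjusted p-value in all 16 alternatives that gave a p-value (log2 fold change -0.37 to -0.29) and HYAL3 in 10 of 16 (0.31 to 0.46), and with 12 libraries in 1 fit HYAL3 was at an adjusted p of 0.0656. CD44 under hypoxia turned from -0.05 to 0.00052 with upper-quartile normalization. The pathway genes called higher under hypoxia were 1, and 3 by the adjusted p-value alone, 0 at a log2 fold change of at least 1 and 1 to 2 without 1 library (2 without WT normoxia replicate 3). Those called lower were 2, and 8 by the adjusted p-value alone, 0 at a log2 fold change of at least 1, 0 with upper-quartile normalization, 1 without filter, 1 with at least 10 counts in every library and 0 to 2 without 1 library (0 without WT normoxia replicate 1 or WT hypoxia replicate 3). In CCAR2 KO 9 were called higher, 4 at a log2 fold change of at least 1 and 7 to 8 without 1 library. Called lower were 3, 1 at a log2 fold change of at least 1 and 3 to 4 without 1 library. By the adjusted p-value alone, 18 of the 37 tested were higher and 10 lower, beside 30.4% of all genes in either direction. HYAL4 is among the 9, the 4 and the 18. The share of all genes at a log2 fold change of at least 1 was not computed, so nothing is read from the counts at that limit. With a replicate block 1 pathway gene was lower under hypoxia, where ESRP1 had an adjusted p of 0.0541, and HYAL4 in CCAR2 KO was not called. The genes most like CEMIP shared 0 of 5 with those by Spearman correlation. In CCAR2 KO the log2 fold change was 3.40 to 3.72 for CEMIP, 1.39 to 1.51 for HAS2, 0.76 to 0.83 for CEMIP2 and 0.46 to 0.86 for HAS3. The mitosis genes lower by the adjusted p-value alone were 9 to 12 under hypoxia and 6 to 10 in CCAR2 KO, in alternatives chosen after seeing the data. The cause of these changes was not tested.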
